A study of Homo sapiens with 13 samples.

Results

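The members described here were 7 long noncoding RNAs (lncRNAs) linked to pluripotency: ESRG, LINC00678, LNCPRESS1, LINC-ROR, LINC01108, SOX2-OT and MIR302CHG. They were chosen by gene symbol, and each was found once in both count tables, among 61541 human genes. RNA was sequenced in bulk from RUES2, an established human embryonic stem cell line, carrying a GFP::SMAD4 fusion. In the time series, cells in mTeSR1, a pluripotency maintenance medium, received 100 ng/mL BMP4, 5 µM IWP2, an inhibitor of Wnt secretion, and ROCK inhibitor. They were collected at 0 h (2 libraries) and at 4, 12, 20, 28 and 42 h (1 library each). The labels of the 0 h libraries list this treatment too, and 0 h is read here as the time of its addition. In the dose response, cells were collected at 5 h with the same BMP4 and IWP2 and with LDN-193189 (LDN), which blocks BMP type I receptors, at 0, 10, 30, 100 or 300 nM, or untreated in mTeSR1 (1 library each). Every group thus shares 1 line and 1 genotype, and nothing in the labels says that the 0 h libraries came from separate cultures, so their spread may be technical.

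Long noncoding RNAs are transcripts that are spliced and often polyadenylated like messenger RNAs but encode no known protein. ESRG and LINC-ROR are driven by HERV-H endogenous retrovirus sequence, a repeat family with unusually high activity in human pluripotent cells. LINC-ROR is known for promoting reprogramming and for binding miR-145, a microRNA that targets the core pluripotency factors. LNCPRESS1 is repressed by p53 and sequesters the deacetylase SIRT6. LINC01108 is also known as lncRNA-ES1 and has been linked to SOX2 and Polycomb proteins. SOX2-OT is transcribed across the SOX2 gene, which lies within it. MIR302CHG is the host transcript of the miR-302 and miR-367 microRNAs, which are hallmarks of the pluripotent cell cycle and target differentiation regulators. LINC00678 is less studied.

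The microRNAs carried by MIR302CHG are shown because they are the functional product of that transcript. Their genes lie in its exons on the minus strand of chromosome 4, and the mature miR-302b-3p is at chr4:112648489-112648511. In the RefSeq sequences (GRCh38.p14), with the seed (bases 2 to 8) in capitals, the 3p arms read:
hsa-miR-302a-3p: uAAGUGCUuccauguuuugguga
hsa-miR-302b-3p: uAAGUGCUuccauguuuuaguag
hsa-miR-302c-3p: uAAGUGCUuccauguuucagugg
hsa-miR-302d-3p: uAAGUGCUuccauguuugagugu
hsa-miR-367-3p: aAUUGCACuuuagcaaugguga
The 4 miR-302 3p arms share 1 seed and miR-367-3p has another. The 5 hairpin genes had 0 counts in all 13 libraries, so the host transcript is the measurable product of the locus here, and the mature microRNAs were not measured.

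Promoter windows (250 bases before to 50 after the RefSeq start, GRCh38.p14) were listed for 4 of the 7 members: LNCPRESS1, SOX2-OT, MIR302CHG and LINC01108. Each was searched on both strands for the octamer ATGCAAAT, the core site of POU factors such as POU5F1 (OCT4), for CATTGT, a core SOX site, for GGCGCC and for TATAAA, the TATA box. None of these motifs overlapped another. Windows of 3 members are printed with matches in capitals, since the matches differ between them. They lie at chr4:112650002-112650301 (MIR302CHG, upstream start, minus strand), chr4:112648654-112648953 (MIR302CHG, downstream start, minus strand), chr6:14285405-14285704 (LINC01108, minus strand) and chr7:101299363-101299662 (LNCPRESS1, plus strand).
MIR302CHG upstream: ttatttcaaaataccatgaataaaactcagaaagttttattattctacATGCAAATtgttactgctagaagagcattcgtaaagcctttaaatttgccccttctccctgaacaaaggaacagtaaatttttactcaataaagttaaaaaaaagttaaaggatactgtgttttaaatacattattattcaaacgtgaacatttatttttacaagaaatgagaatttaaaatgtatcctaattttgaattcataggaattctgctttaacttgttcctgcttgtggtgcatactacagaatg
MIR302CHG downstream: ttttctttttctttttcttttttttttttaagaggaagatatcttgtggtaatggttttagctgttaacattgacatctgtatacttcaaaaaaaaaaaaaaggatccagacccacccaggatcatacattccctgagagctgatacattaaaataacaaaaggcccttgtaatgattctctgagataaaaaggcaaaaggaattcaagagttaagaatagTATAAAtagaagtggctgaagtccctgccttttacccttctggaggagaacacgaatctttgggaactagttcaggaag
LINC01108: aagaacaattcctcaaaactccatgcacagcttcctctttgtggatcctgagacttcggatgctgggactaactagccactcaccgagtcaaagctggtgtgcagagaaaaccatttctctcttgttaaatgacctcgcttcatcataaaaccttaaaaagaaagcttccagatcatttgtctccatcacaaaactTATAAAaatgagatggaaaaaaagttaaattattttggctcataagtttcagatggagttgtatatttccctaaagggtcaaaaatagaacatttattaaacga
LNCPRESS1: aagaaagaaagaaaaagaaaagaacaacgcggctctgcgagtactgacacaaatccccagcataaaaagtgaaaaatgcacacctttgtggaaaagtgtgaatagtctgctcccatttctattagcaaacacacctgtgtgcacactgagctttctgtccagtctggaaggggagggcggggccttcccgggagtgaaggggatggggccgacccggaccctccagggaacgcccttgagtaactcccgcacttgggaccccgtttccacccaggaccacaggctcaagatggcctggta
The upstream MIR302CHG window held ATGCAAAT, starting 202 bases before the start site. This octamer was in 1.77% of all 35116 RefSeq promoter windows. TATAAA, present in 11.5% of windows, started 29 bases before the downstream MIR302CHG start and 54 bases before that of LINC01108. Of the 3 SOX2-OT windows, one held TATAAA and another CATTGT, which was in 10.8% of windows. GGCGCC, in 19.2% of windows, was in none of the 7 windows, and the LNCPRESS1 window held no match. The LNCPRESS1 window had 46.7% A or T and the other 6 windows had 60.0% to 72.0%, against a median of 41.3% over all windows. A match is a description of letters and was not tested as a binding site.

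By GENCODE 44 (GRCh38), all 7 genes are annotated as lncRNA. ESRG (chr3:54632122-54639857, minus strand) lies within CACNA2D3 and shares no exonic base with it. LINC00678 (chr11:27617626-27634627, minus strand) lies within BDNF-AS, also with no shared exonic base. LNCPRESS1 (chr7:101299558-101301346, plus strand), LINC-ROR (chr18:57054558-57072119, minus strand) and LINC01108 (chr6:14280127-14285454, minus strand) overlap no other annotated gene. SOX2-OT (chr3:180989762-181836880, plus strand) contains SOX2 on the same strand, with no shared exonic base. MIR302CHG (chr4:112646476-112650051, minus strand) lies within LARP7 on the opposite strand and shares 1318 exonic bases with it. Whether counting used the strand is not stated in the sources used here, so reads of MIR302CHG and LARP7 cannot be told apart with certainty. The repeat-derived parts of ESRG and LINC-ROR have many near copies in the genome, so their estimated counts carry the uncertainty of reads that map to several places.

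Libraries held 37957385 to 71333471 counts in the time series and 15600931 (untreated) to 33989998 in the dose response. Values are given as counts per 1000000 counts of the library (CPM). The limit that a count of 0 allows (3 counts) was 0.042 to 0.079 CPM in the time series and 0.088 to 0.192 CPM in the dose response. One 0 h library (replicate 1) and the untreated library stood apart in the share of mitochondrial counts (7.60% and 7.89%, against 2.01% to 4.49% in the other 11). The pluripotency factor POU5F1 was also lower in them than in their neighbours, at 1003 CPM in 0 h replicate 1 against 1721 in replicate 2, and at 1473 CPM untreated against 2391 with BMP4 and no LDN. Calls of the fits that include either library and half-loss times were therefore also computed without it, while levels relative to untreated rest on that single library. The summed level of 6 pluripotency markers was 5925 and 6357 CPM at 0 h and 3069 CPM at 42 h, with none at 0. Among them, LIN28A and POU5F1 were at 60.4% and 84.1% of their 0 h mean at 42 h. SOX2, NANOG, TDGF1 and DPPA4 were then at 3.05%, 0.825%, 1.97% and 13.8%, so the sum at 42 h was mostly LIN28A and POU5F1. The sum of 10 amnion markers went from 33.1 and 38.7 to 5986 CPM. Sums of 4 primitive streak, 3 definitive endoderm and 4 trophoblast markers stayed at or under 4.41, 4.68 and 2.97 CPM in every library, with TBXT, EOMES and SOX17 all under 4 CPM. The 3 neural markers went from 72.9 and 77.5 to 0.980 CPM, and the 0 h sum was almost all OTX2, which is also active in pluripotent cells.

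All 7 lncRNAs ended far below their 0 h level by 42 h. ESRG was the most abundant member in the time series and its decline was continuous. Its level was 1371 and 700.3 CPM in the 0 h libraries, then 703, 354, 163, 89.2 and 14.6 CPM at 4, 12, 20, 28 and 42 h. The 4 h value lay within the spread of the 0 h libraries and all later values lay below both. The 0 h libraries differed 1.96-fold from each other, so ESRG at 4 h was 0.513 times replicate 1 and 1.0 times replicate 2. By 42 h it was at 1.41% of the 0 h mean (1036 ± 474 CPM, SD, n = 2).

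LINC00678 had the steepest fitted loss of the 5 members with a mean of at least 1 CPM. It was at 41.5 and 44.1 CPM at 0 h, and at 20.7, 10.9, 2.46, 0.914 and 0.049 CPM at the 5 later times in order. The last value is 3 counts, and the 0 h mean was 873 times higher (95% interval of the ratio 299 to 4233, counting error only). Every time point lay below both 0 h libraries, which themselves differed by less than 1.1-fold (0.941, replicate 1 over replicate 2). Intervals given here and elsewhere cover counting error only.

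The other 5 members fell into abundant and scarce transcripts. MIR302CHG measured 167 and 103 CPM at 0 h, then 87.4, 81.6, 72.8, 34.8 and 4.69 CPM. From 4 to 20 h it thus fell slightly (0.833-fold, 0.798 to 0.870), and it was lower still at 28 and 42 h. LARP7, the overlapping gene, was at 143% of its 0 h mean at 42 h and did not pass the test of time (log2 0.17 per 10 h, SE 0.06, adjusted p = 0.0603, edgeR), so the 2 profiles ran differently.

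LNCPRESS1 was the member whose decline was not continuous. It was at 13.6 and 15.4 CPM at 0 h, then at 7.32, 9.76, 8.24, 2.0 and 0.180 CPM. The 12 h level was 1.33 times that at 4 h (95% interval 1.16 to 1.53), and the 20 h level did not differ from that at 4 h beyond counting error (1.12-fold, 0.977 to 1.3). The time points at 4 to 20 h thus lay at 50.6% to 67.4% of the 0 h mean, all below both 0 h libraries.

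SOX2-OT kept its level longest among the scarcer RNAs. It was at 5.06 and 4.37 CPM at 0 h, then at 4.30, 3.06, 1.01, 0.745 and 0.049 CPM, the last from 3 counts. The 4 h value did not differ from either 0 h library beyond counting error (0.851-fold, 0.693 to 1.04, and 0.984-fold, 0.818 to 1.18). SOX2, the transcription factor gene inside it, went from a 0 h mean of 382 CPM to 63.3% of it at 4 h, 39.1% at 20 h and 3.05% at 42 h. SOX2-OT was at 91.2%, 21.3% and 1.04% at these times.

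LINC01108 and LINC-ROR were scarce already at 0 h, with fewer than 100 counts. LINC01108 had 63 and 95 counts at 0 h (1.66 and 1.33 CPM), then 28, 14, 0, 2 and 0 counts. LINC-ROR had 23 and 61 counts at 0 h (0.606 and 0.855 CPM), then 11, 5, 3, 0 and 0 counts. Both were already lower at 4 h than in each 0 h library, for LINC-ROR 0.401-fold (0.176 to 0.855) and 0.284-fold (0.135 to 0.544). Against the limit of 3 counts in the 42 h library, LINC01108 was at least 30.5-fold lower and LINC-ROR at least 14.9-fold lower than at 0 h.

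**Figure D1:**
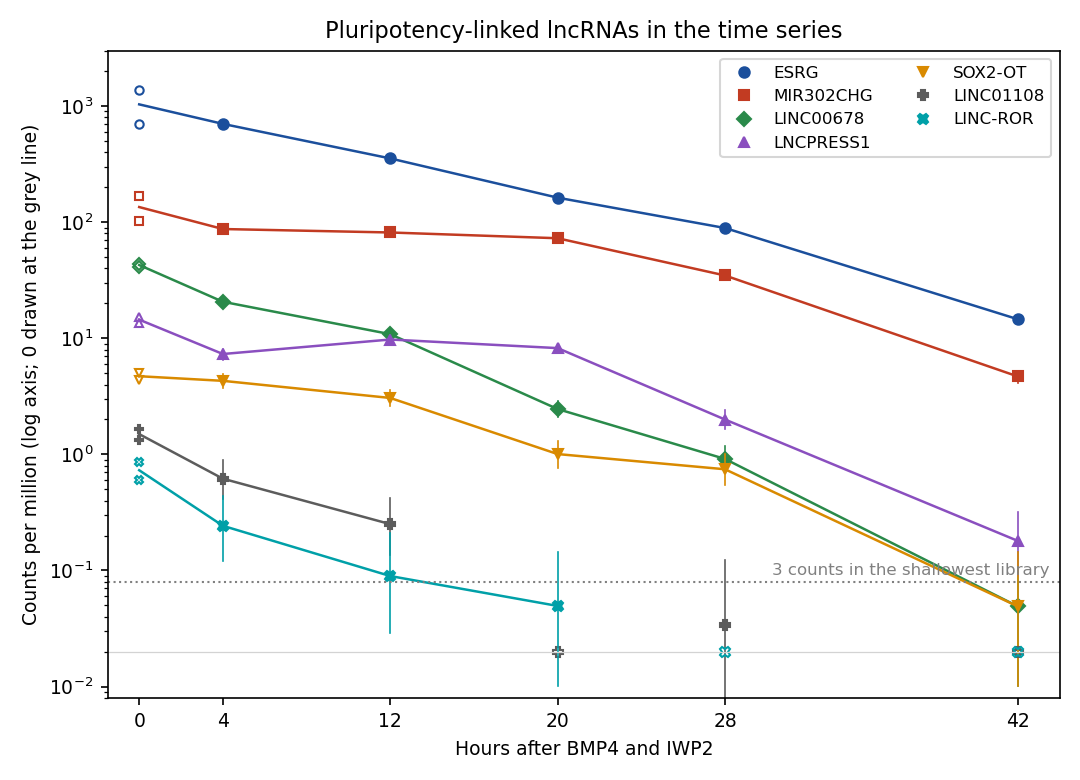
Level of the 7 lncRNAs (CPM, log axis) against hours after BMP4 and IWP2. Open symbols at 0 h are the 2 libraries, whose mean starts each line, filled symbols are single libraries with exact 95% Poisson intervals, values of 0 are drawn at the grey line, and the dotted line marks 3 counts in the shallowest library (0.079 CPM). All 7 end below their 0 h libraries. Between 4 and 20 h MIR302CHG falls slightly (0.833-fold), and LNCPRESS1 is higher at 12 h (1.33-fold over 4 h) and lower again at 20 h.

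To ask whether the loss over time exceeds the scatter about a straight line, a line was fitted to each gene over the 7 libraries (edgeR quasi-likelihood test, hours as a number). That scatter holds both the spread between libraries and any bend in the profile. Of the 15976 genes tested, 17.5% were lower with time, and 5 of 5 members that passed the filter of a mean of 1 CPM were among them. The slope per 10 h on the log2 scale was -2.04 for LINC00678 (SE 0.10, adjusted p = 1.73e-05, edgeR), -1.35 for ESRG (SE 0.10, adjusted p = 6.14e-05) and -1.22 for SOX2-OT (SE 0.16, adjusted p = 0.000902). LNCPRESS1 (-1.09, SE 0.25, adjusted p = 0.0118) and MIR302CHG (-0.88, SE 0.17, adjusted p = 0.00577) had the smallest slopes. LINC-ROR (-2.19, SE 0.27, adjusted p = 8.39e-05) and LINC01108 (-2.33, SE 0.27, adjusted p = 5.55e-05) were tested only without that filter and were then lower. With them, 7 of 7 were called. LINC00678 was at -2.03 (SE 0.10) in that fit, so these slopes are not told apart. Without the filter, 3049 of 39033 genes tested were lower. The median slope of the 5 members was -1.22, against -0.0011 over all genes tested. The call for LNCPRESS1 was lost with the square root of hours (adjusted p = 0.076). Fewer cells that hold these RNAs and less RNA per cell cannot be told apart in bulk samples.

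Among 22 protein-coding genes of the pluripotency network, 16 were lower with time, none higher and 6 did not pass the test, with a median slope of -0.53. The largest falls were those of PRDM14, a repressor of differentiation genes (-1.64, SE 0.21), USP44, a deubiquitinase (-1.62, SE 0.07), NANOG (-1.46, SE 0.21) and FOXD3 (-1.40, SE 0.26). The slope of LINC00678 lay below all of these. Of 11 other lncRNAs tested, 4 were lower, 3 higher and 4 not called. The lower ones were LINC00458 (-1.72, SE 0.20) and LNCPRESS2 (-1.52, SE 0.16), both known from pluripotent cells, and the small nucleolar RNA hosts SNHG1 (-0.19) and DANCR (-0.17). The higher ones were GATA3-AS1 (1.59, SE 0.49), NEAT1, the scaffold of paraspeckles (0.63), and MALAT1 (0.27).

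The order of loss was described by the time at which the interpolated level first reached 50% of the 0 h mean. It was 2.52 h for LINC-ROR, 3.14 h for LINC01108 and 3.80 h for LINC00678. With either 0 h library alone as the start these times were 2.20 to 3.03 h, 2.81 to 3.61 h and 3.65 to 3.97 h. The ranges of LINC-ROR and LINC01108 overlap, while that of LINC00678 lies just above both. Counting error, large for LINC-ROR and LINC01108, is left out of these ranges, so the order among these members is not resolved. ESRG reached it at 7.57 h, or at 4.30 h from replicate 1 and 12.1 h from replicate 2. SOX2-OT followed at 13.9 h (13.4 and 14.4 h), close to SOX2 at 15.0 h (14.6 and 15.4 h). LNCPRESS1 and MIR302CHG came last, at 20.7 and 20.8 h, and both depend on the start. LNCPRESS1 was at 50.6% at 4 h, so that from replicate 2 alone its time was 3.74 h, and MIR302CHG gave 9.19 h from replicate 1 and 23.7 h from replicate 2.

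Thus 3 of 7 lncRNAs were at less than 50% by 4 h, as were 2 of 22 protein-coding genes, FOXD3 (1.59 h) and PRDM14 (2.57 h). From 0 h replicate 2 alone or on TMM-scaled CPM it was 4 of 7, with LNCPRESS1. Of 17688 genes with a 0 h mean of at least 0.5 CPM, 1.5% were at or under 50% at 4 h. NODAL, the ligand of the Nodal pathway (5.37 h), and USP44 (8.21 h) stood beside ESRG, and TDGF1, the Nodal co-receptor (14.2 h), and NANOG (15.9 h) beside SOX2-OT. POU5F1, ZFP42, TRIM71 and the let-7 inhibitors LIN28A and LIN28B kept more than 50% of their 0 h level through 42 h.

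**Figure D2:**
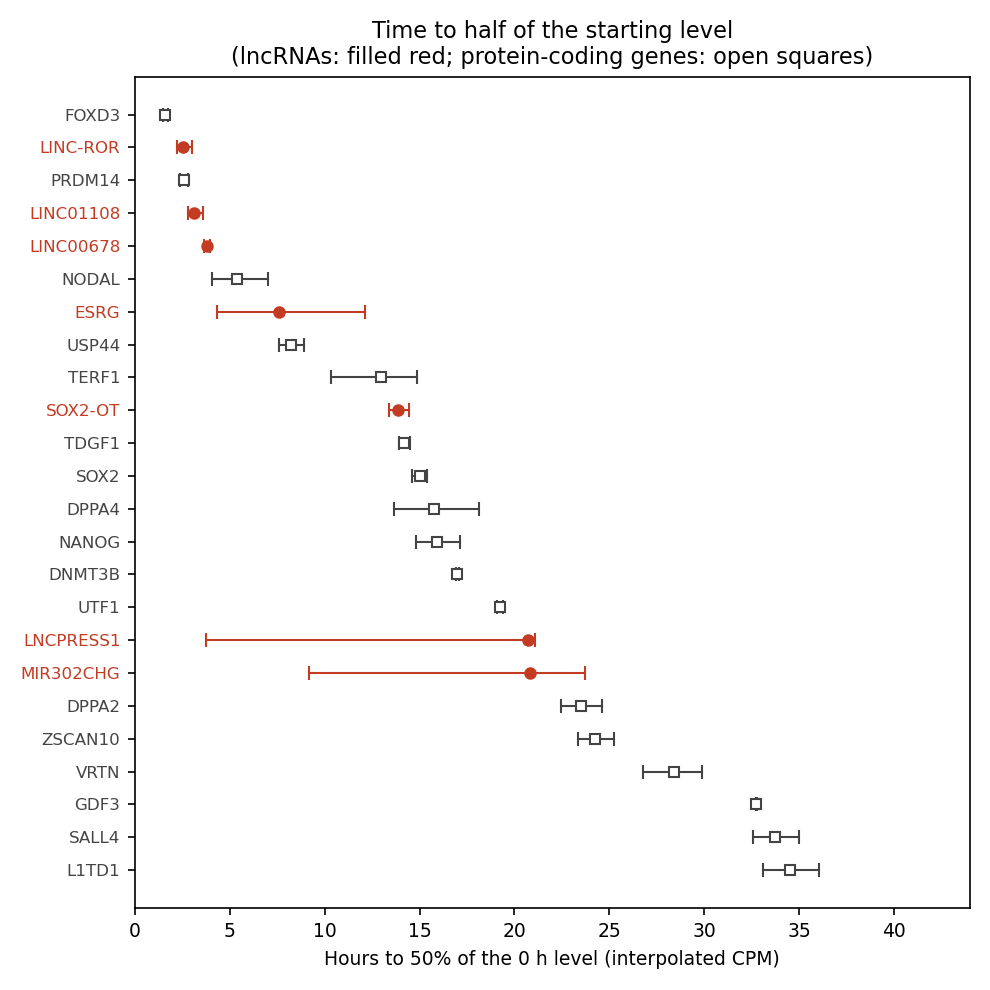
Hours until the interpolated CPM first reached 50% of the 0 h level, for the 7 lncRNAs (filled red circles) and the 17 protein-coding pluripotency genes that reached it (open squares). Symbols use the mean of the 0 h libraries and bars end at the values from each 0 h library alone. LINC-ROR, LINC01108 and LINC00678 lie under 4 h with narrow bars, while the bars of LNCPRESS1, MIR302CHG and ESRG are wide. Bars leave out counting error, which is large for LINC-ROR and LINC01108.

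At 5 h, the levels with BMP4 and no LDN lay below the untreated level for 6 of 7 members beyond counting error (exact 95% interval of the ratio below 1). The same held for 22.2% of 14581 genes with at least 1 CPM untreated, and 59.4% of them differed in either direction by this measure. ESRG was at 589 CPM against 1447 CPM untreated (40.7%), LINC00678 at 35.6 against 76.7 CPM (46.3%) and MIR302CHG at 143.5 against 273 CPM (52.5%). LNCPRESS1 was at 31.5 against 46.0 CPM (68.5%). The scarce LINC01108 was at 47.5% (95% interval of the ratio 0.251 to 0.890) and LINC-ROR at 36.2% (0.159 to 0.794) of untreated. SOX2-OT was at 3.83 against 4.42 CPM (86.5%, ratio 0.635 to 1.19). These are single libraries with no replicate check, and the untreated cells lacked IWP2 as well as BMP4.

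The dose response asks how far blocking the BMP receptors holds the levels up. LINC00678 stood at 35.6, 46.1, 50.4, 56.7 and 66.0 CPM at 0, 10, 30, 100 and 300 nM LDN, higher at every dose than at the one before. ESRG stood at 589, 638, 696, 754 and 804 CPM, and LNCPRESS1 at 31.5, 33.5, 37.5, 41.7 and 42.7 CPM, both also in the order of the doses. The first and last steps of LNCPRESS1 were within counting error (1.06-fold, 0.974 to 1.16, and 1.02-fold, 0.949 to 1.1). MIR302CHG was at 143.5, 144.0, 135.6, 156.5 and 173.9 CPM. Beyond counting error, it was lower at 30 than at 10 nM (0.942-fold, 0.904 to 0.981). It was higher than without LDN at 100 nM (1.09-fold, 1.05 to 1.14) and 300 nM (1.21-fold, 1.16 to 1.26). Counting error leaves out the spread between libraries, which for MIR302CHG was 1.62-fold at 0 h. SOX2-OT showed no order, at 3.83, 3.35, 3.32, 4.79 and 3.23 CPM. LINC01108 had 21, 31, 26, 40 and 40 counts and LINC-ROR 12, 8, 6, 20 and 16 counts.

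The trend was tested per dose step (0 to 4) over the 5 libraries with BMP4. Of 14907 genes, 10.4% were higher with dose, and 4 of 5 members tested were among them. The estimates per step on the log2 scale were 0.21 for LINC00678 (SE 0.02, adjusted p = 3.6e-06, edgeR), 0.12 for LNCPRESS1 (SE 0.02, adjusted p = 0.000222), 0.12 for ESRG (SE 0.01, adjusted p = 1.3e-06) and 0.07 for MIR302CHG (SE 0.02, adjusted p = 0.0141). SOX2-OT gave 0.01 (SE 0.06, adjusted p = 0.913). The MIR302CHG call was lost without the 300 nM library (adjusted p = 0.321) and with DESeq2 (adjusted p = 0.115). LARP7 moved the other way, at -0.09 per step (SE 0.02, adjusted p = 0.0113). With dose entered in nM in place of steps, 1 of 5 members was called, MIR302CHG, beside 391 genes in all (3180 with steps).

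Of the 22 protein-coding pluripotency genes, 11 were higher with dose, 1 lower (GDF3) and 10 not called, with a median of 0.046 per step, against -0.00068 over all genes. PRDM14 (0.59 per step, SE 0.03) and FOXD3 (0.29, SE 0.03), both halved by 4 h, had larger estimates than any lncRNA member. SOX2 was higher with dose (0.09, SE 0.01, adjusted p = 0.000405, edgeR). SOX2-OT, which spans it, was not called (0.01, SE 0.06), with an error too wide to tell the 2 estimates apart. Of 10 other lncRNAs, LINC00458 was higher (0.16), GATA3-AS1 (-1.0), NEAT1 (-0.19) and MALAT1 (-0.15) were lower, and 6 were not called. The amnion marker sum was 569 CPM at 0 nM and 76.5 CPM at 300 nM LDN.

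The members differed in how much of the gap to the untreated level 300 nM LDN closed. The untreated cells lacked IWP2 as well as BMP4, so the gap holds both and their parts cannot be told apart. LINC00678 at 66.0 CPM had closed 74.0% of the distance from 35.6 to 76.7 CPM, and LNCPRESS1 77.4%, its level at 300 nM not differing from untreated beyond counting error (0.929-fold, 0.848 to 1.02). LINC01108 had closed 58.9%, with a ratio of 300 to 0 nM of 1.65 (0.951 to 2.95) and of 300 nM to untreated of 0.784 (0.461 to 1.36). Since each interval holds 1, this share is not resolved. ESRG had closed 25.0% and MIR302CHG 23.4%, and both remained well under untreated at 300 nM (0.556-fold, 0.546 to 0.566, and 0.636-fold, 0.611 to 0.662). LINC-ROR was also under untreated at 300 nM (0.418-fold, 0.200 to 0.869), on 16 counts against 18. With 12 counts at 0 nM, its ratio of 300 to 0 nM was 1.16 (0.513 to 2.68). Its share closed (8.86%) is therefore not resolved. SOX2-OT was at 3.83 CPM without LDN, 3.23 CPM at 300 nM and 4.42 CPM untreated, further from untreated at 300 nM, with every ratio among these within counting error, so no share is given. ESRG and MIR302CHG are also the members that were most raised in 0 h replicate 1 over replicate 2, by 1.96 and 1.62 times, against 0.709 to 1.25 times for the others. Untreated and 0 h replicate 1 are the libraries with the high mitochondrial share, and the part of this in the gap was not tested.

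For the 8 protein-coding genes with a level under 0.75 of untreated at 0 nM LDN, the share closed ran from 7.31% (NANOG) to 391% (FOXD3). It was 18.7% for NODAL and 26.8% for TDGF1, both of the Nodal pathway, and 52.3% for DPPA4 (46.1% on TMM-scaled CPM). It was 106% for PRDM14 (99.3% on TMM-scaled CPM), 142% for USP44 and 172% for DNMT3B, where 100% is the untreated level. TERF1, at 0.753 of untreated and so just outside this limit, had closed 41.0%. All of these shares rest on 1 untreated library.

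**Figure D3:**
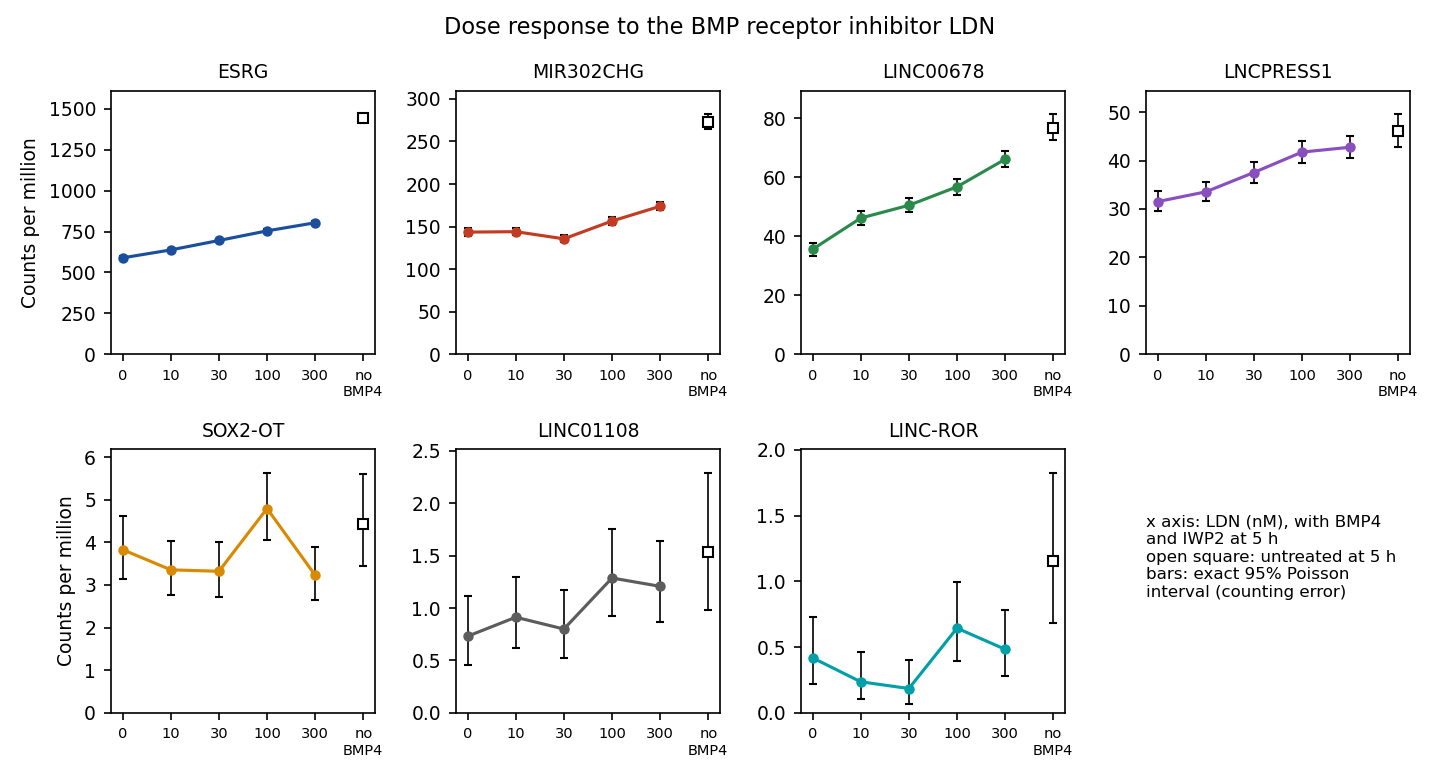
CPM of each lncRNA at 5 h against LDN (0 to 300 nM, with BMP4 and IWP2) and in the untreated library (open square), with exact 95% Poisson intervals. ESRG, LINC00678 and LNCPRESS1 are higher at each dose than at the one before, and at 300 nM LNCPRESS1 comes close to the open square while ESRG and MIR302CHG remain far below it.

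Both experiments hold cells without BMP4 and cells after 4 or 5 h of it, but the time series was made with ribosomal RNA depletion, which keeps RNAs with and without a polyA tail, and the dose response with polyA selection. A fit over 5 libraries (0 h replicates 1 and 2, 4 h, untreated, and BMP4 without LDN) estimated the preparation and the early BMP4 effect together. The early BMP4 effect is that of BMP4 with IWP2, which were given together and cannot be told apart. Extraction kit, experiment and sequencing run changed with the preparation and cannot be told apart from it. LNCPRESS1 differed most. It was at 7.32 to 15.4 CPM in the 3 depleted libraries and at 31.5 and 46.0 CPM in the polyA-selected ones, with no overlap. LINC00678 (20.7 to 44.1 against 35.6 and 76.7 CPM) and MIR302CHG (87.4 to 167 against 143.5 and 273 CPM) overlapped until BMP4 was taken into account.

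Of 15636 genes tested, 12.1% were higher with polyA selection, and 3 of 6 members tested were among them. The estimate was 1.93 for LNCPRESS1 (SE 0.19, adjusted p = 6.34e-05, edgeR, 3.82-fold), 0.97 for MIR302CHG (SE 0.21, adjusted p = 0.00734) and 0.90 for LINC00678 (SE 0.17, adjusted p = 0.00317). ESRG (0.26, SE 0.28, adjusted p = 0.521), LINC01108 (0.21, SE 0.35, adjusted p = 0.69) and SOX2-OT (-0.05, SE 0.24, adjusted p = 0.907) were not called. Without the untreated library only LNCPRESS1 was called (2.20, adjusted p = 4.72e-07), with MIR302CHG at 0.81 (adjusted p = 0.164) and LINC00678 at 0.88 (adjusted p = 0.106). LARP7 was also higher (1.17, SE 0.18, adjusted p = 0.00109), in the same direction as MIR302CHG.

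As a reference for the chemistry, all 11 tested RNAs known to lack a polyA tail were lower with polyA selection, with a median of -7.39 on the log2 scale, against -0.03 over all genes. They included the small nuclear RNA RN7SK (-9.87) and the replication-dependent histone gene H2AC6 (-2.56). No member was called lower. Of 11 other lncRNAs, MALAT1 (-2.34) and NEAT1 (-1.53), whose long forms end without conventional polyadenylation, FIRRE (-1.46) and TERC, which was also in the reference set (-5.59), were lower, LINC00458 was higher (1.01), and 6 were not called. Of the 22 protein-coding pluripotency genes, 3 were higher and 5 lower.

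Per length, in the authors' FPKM (fragments per kilobase of transcript and per 1000000 fragments), ESRG stood first at 0 h (480 and 245 FPKM), MIR302CHG next (269 and 187), then LINC00678 (81.4 and 86.4) and LNCPRESS1 (22.4 and 25.3). ESRG was above MIR302CHG within each 0 h library, but ESRG in replicate 2 lay below MIR302CHG in replicate 1. The distance between them is thus within the spread between libraries. At 20, 28 and 42 h MIR302CHG was ahead, at 74.5, 50.1 and 8.63 FPKM against 56.6, 30.9 and 5.07 FPKM. In the untreated polyA library MIR302CHG was first at 640 FPKM, before ESRG at 505, LINC00678 at 148 and LNCPRESS1 at 75.1. SOX2-OT (2.43 to 2.98 FPKM), LINC-ROR (0.49 to 0.78) and LINC01108 (0.49 to 0.74) were the lowest in these 3 libraries, and the last pair did not differ beyond their spread.

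In the same fit, the early BMP4 effect was lower for 1.27% of genes and for 3 of 6 members. LINC00678 gave -1.16 (SE 0.18, adjusted p = 0.00185, edgeR), LNCPRESS1 -0.88 (SE 0.20, adjusted p = 0.0223) and MIR302CHG -0.84 (SE 0.22, adjusted p = 0.0497). LINC01108 (-1.27, SE 0.35, adjusted p = 0.0624) and ESRG (-0.95, SE 0.29, adjusted p = 0.0905) missed the threshold, and SOX2-OT gave -0.25 (SE 0.24, adjusted p = 0.694). LNCPRESS1 lost its call without the 4 h library (adjusted p = 0.572), and MIR302CHG lost its call with library totals in place of TMM (adjusted p = 0.068) and in 4 of the 5 fits that left out a library (0 h replicate 1, 4 h, untreated or 0 nM LDN). ESRG passed without 0 h replicate 2 (-1.23, adjusted p = 0.0011) or without the 4 h library (-1.41, adjusted p = 0.0218). Of the 22 protein-coding pluripotency genes, 2 were called lower, PRDM14 (-1.96) and FOXD3 (-1.68), both also halved by 4 h. Of 11 other lncRNAs, LINC00458 was lower (-1.48), NEAT1 (1.2) and GATA3-AS1 were higher and 8 were not called.

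A test of whether this early effect differed between the preparations, added after the values were seen, called no member among 56 of 15636 genes (518 at an unadjusted p under 0.05). Its largest estimate among the members was that of ESRG, -0.78 (SE 0.53, adjusted p = 1, edgeR), with 0.40 for LNCPRESS1 (SE 0.49) and -0.10 for LINC00678 (SE 0.49). With 1 residual degree of freedom, differences of this size are not resolved.

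**Figure D4:**
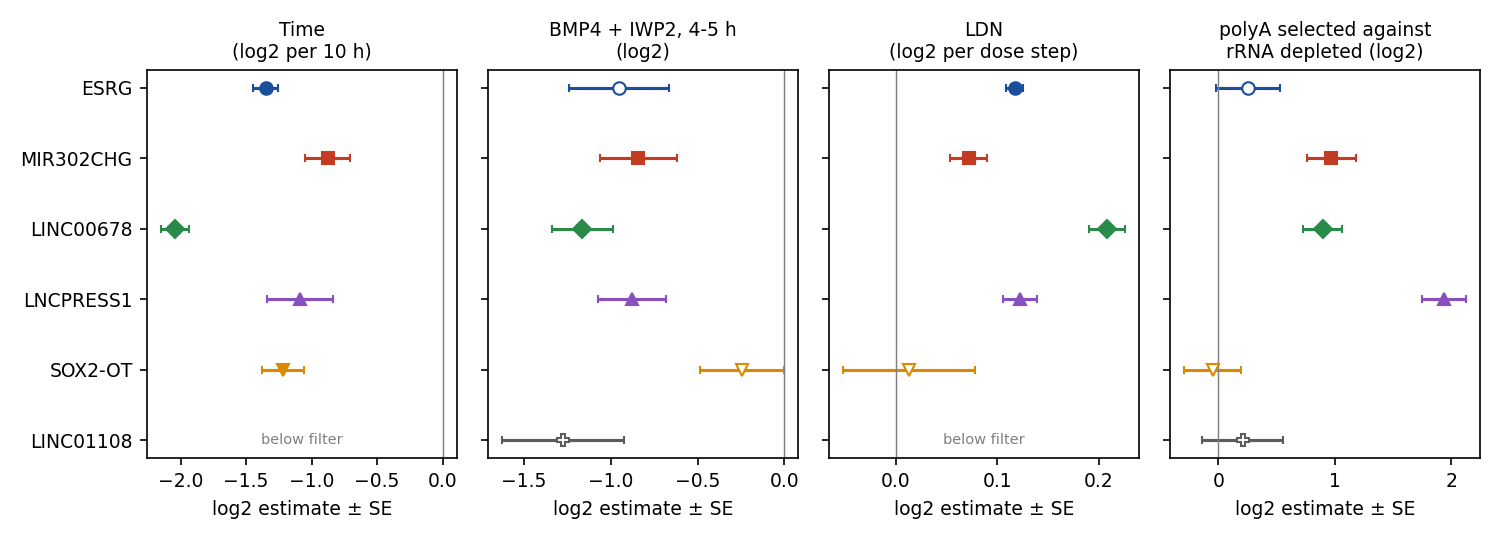
Log2 estimates with standard errors (edgeR) for the members tested, in the fits over time (per 10 h), for BMP4 and IWP2 at 4 to 5 h, over LDN (per dose step) and for polyA selection against ribosomal RNA depletion. Filled symbols have an adjusted p under 0.05. Of the members shown, LINC00678 has the steepest slope over time and the largest over LDN, and LNCPRESS1 the largest estimate for preparation (1.93).

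Patterns across libraries were compared by Pearson's r of log2(CPM + 0.5), as a description over libraries that share their time or dose order. Over the 7 time-series libraries, the gene most like LNCPRESS1 among 10253 was EMSLR, another lncRNA (r = 0.995). ESRG was most like ACBD7 (r = 0.999), LINC00678 like POLR3G, a subunit of RNA polymerase III that is abundant in stem cells (r = 0.996), SOX2-OT like PTBP2, a splicing regulator (r = 0.999), and MIR302CHG like RABGAP1L (r = 0.995). Over the 6 libraries at 5 h, ESRG was most like TSKU (r = 0.999) and, next, TDGF1 (r = 0.999), while LINC00678 was most like RAPGEF1 (r = 0.999), LNCPRESS1 like TNRC6A (r = 0.9996), MIR302CHG like COX7C (r = 0.998) and SOX2-OT like CCT4 (r = 0.989). Among the members themselves at 5 h, ESRG and MIR302CHG (r = 0.970) and LINC00678 and LNCPRESS1 (r = 0.970) were the most alike pairs, and SOX2-OT had an r of 0.258 to 0.458 with the other 4.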

How the data were processed

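The count tables hold RSEM expected counts per gene, which the authors deposited as whole numbers that are not scaled for depth, and the FPKM tables hold values that the authors normalized for length and depth. Reads had been trimmed with Cutadapt, mapped to GRCh38 with STAR 2.7.8a and estimated with RSEM 1.3.3, per the submitters' processing notes and the study's methods. The annotation release and any strand setting are not given in the sources used here. The members and lists were chosen with earlier results of these data known.

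CPM was computed on library totals. Members were the 7 symbols given, and further named genes were lists of protein-coding pluripotency genes, genes at the members' loci, other lncRNAs, RNAs without a polyA tail, cell type markers, and the 3 genes most like each member. Of the lists, examples were named, not in every case those with the largest estimates. A gene of the protein-coding list is not reported here and was left out of that list's counts. The 5 features that are not human were left out of tests. Fits used edgeR 4.0.16 (TMM, quasi-likelihood test, Benjamini-Hochberg over all genes tested, threshold 0.05, mean of at least 1 CPM) in R 4.3.3. No time after 0 h and no dose had a replicate, so the scatter about each fitted line was the error. DESeq2 1.42.0 and limma 3.58.1 (log2 of FPKM + 0.1) were alternatives. The half-loss time was interpolated on the log2 scale. Intervals are exact (95%). The fits were also run on simulated counts. Changes there followed the fitted line exactly, with the same dispersion for every gene, so they do not show how the fits handle other profiles. Sequences came from RefSeq tables. Python 3.11.15 was used.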

Additional observations from a re-analysis of the deposited data

How the results depend on the processing

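No paired analysis was possible because only the 0 h group has 2 libraries and no other group shares a second replicate number. Over the 7 time-series libraries, 5 of 5 members were lower under every alternative with the filter except the square root of hours (4). Leaving out each library in turn gave 5 in every fit over time, 3 to 4 over dose, 1 to 3 for preparation and 2 to 4 for the early BMP4 effect. The dose trend called 1 member with dose in nM. The early BMP4 effect called 6 with no filter on low counts, where 477 of 36555 genes were lower. Library totals in place of TMM moved the share of called genes that were higher from 52.4% to 34.3% over time and from 46.6% to 36.1% for preparation, where the median of all genes was then -0.10, while the members' calls were 5 and 3 as before. For the early BMP4 effect they then went from 3 to 2, without MIR302CHG (adjusted p = 0.068). With no filter, 6838 genes were called for preparation (4056 with it) and 1636 for the early effect (868). With 0 h against untreated only, 1634 were called for preparation. Leaving out a library gave 3259 to 6602 genes over time (5865 with all), 1978 to 2974 over dose (3180), 1534 to 5681 for preparation and 564 to 1176 for the early effect.

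The direction changed only for estimates that were not called. SOX2-OT over dose was -0.030 with dose in nM and -0.049 to 0.110 when a library was left out. For preparation, SOX2-OT was 0.054 with no filter and -0.12 to 0.013 when a library was left out, and ESRG -0.16 to 0.59. The half-loss time of LINC00678 was 3.53 h and that of LNCPRESS1 3.75 h on TMM-scaled CPM, and that of SOX2-OT 14.7 h with linear interpolation. From each 0 h library alone it was 3.74 to 21.1 h for LNCPRESS1 and 9.19 to 23.7 h for MIR302CHG. The log2 ratio of treated to untreated at 5 h was -1.38 for ESRG (-1.30 on library totals) and -1.02 for MIR302CHG on TMM-scaled CPM, and -1.08 for MIR302CHG in FPKM (-0.93 in CPM). The share of the gap closed at 300 nM LDN, an added description, was 68.0% for LINC00678 and 67.4% for LNCPRESS1 on TMM-scaled CPM. Of 265 alternatives for single members, 240 kept both direction and side of the threshold. Depth limits LINC-ROR, LINC01108 and the last time points, where single counts decide the value.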
